A study of Oryza sativa Japonica Group with 12 samples.

Results

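The PYL proteins (pyrabactin resistance 1-like, also called RCAR) are the soluble receptors of abscisic acid (ABA), the plant hormone of drought and osmotic stress. Here 7 rice loci of this family, given by locus number, were followed across the 12 libraries of a seedling RNA sequencing series. All 7 were found among the 29358 loci of the authors' expression table. The values are FPKM, in which the fragments of a gene are divided by its length and by the library's mapped total, so levels of different genes can be set side by side. The loci are LOC_Os02g15640, LOC_Os10g42280, LOC_Os03g18600, LOC_Os05g39580, LOC_Os06g36670, LOC_Os02g13330 and LOC_Os01g61210. They are called by locus number because the reference gene table used here names none of them.

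In the core ABA pathway a PYL protein that has bound ABA docks onto a clade A protein phosphatase 2C (PP2C), the co-receptor, and blocks it. Without ABA these phosphatases hold some of the SnRK2 protein kinases (SAPK in rice) inactive. Once freed, those kinases phosphorylate bZIP transcription factors of the ABF/AREB type, which switch on ABA-responsive genes. B2 and B3 RAF kinases are known from Arabidopsis to phosphorylate and activate SnRK2 kinases. In Arabidopsis, several receptor genes are known to be lowered by ABA while genes of the phosphatases are raised by it.

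The series compared rice of the Japonica group as whole seedlings, 5 days old, in 4 groups of 3 libraries. These were the line raf-b2/3 after 6 hours in 800 mM mannitol, raf-b2/3 without mannitol (control), the wild type (WT, labelled WT/NIP in the protocols) after the same mannitol treatment, and WT without mannitol. Mannitol is a sugar alcohol that draws water out of plant cells and so imposes osmotic stress. The labels call raf-b2/3 a knockdown in 1 field and a mutant in another, name no alleles and do not say how many independent lines it stands for. Nothing in the labels ties the libraries of a group to separate plantings. The p-values therefore reflect variation among these libraries only, and that variation could be technical.

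The deposited FPKM values corresponded to between 37534836 and 39792489 whole fragments per library, with relative depths of 0.968 to 1.03. Differences were tested with limma on log2(FPKM + 1) over the 22371 loci that reached an FPKM of 1 in 3 or more libraries, and a gene was called at a Benjamini-Hochberg adjusted p under 0.05. 5 of the 7 PYL loci entered the test and 2 did not. Organ markers moved with the treatment: 4 of 4 root markers and 4 of 6 green shoot markers were lower under mannitol in both genotypes. The summed root markers spanned 59.8 to 89.0 FPKM in raf-b2/3 mannitol, 551 to 661 in raf-b2/3 control, 76.2 to 85.6 in WT mannitol and 115 to 497 in WT control. The low end of the last range was WT control 2, in which the root silicon transporter gene LSI1 was at 53.3 FPKM, against 200 and 216 FPKM in WT control 1 and 3. The 6 green shoot markers summed to 17811 to 21287 FPKM in raf-b2/3 mannitol, 29231 to 32693 in raf-b2/3 control, 15560 to 18510 in WT mannitol and 28400 to 31014 in WT control. The 3 seed markers summed to 34.2 to 771 FPKM, 1.48 to 845 FPKM, 197 to 361 FPKM and 36.2 to 493 FPKM in the same 4 groups, in that order, a sum set mostly by the amylase gene RAMY1A, which did not pass. The other 2 seed markers were higher under mannitol in both genotypes. RAMY3D averaged 2.74 ± 0.808 FPKM in raf-b2/3 mannitol and 0.200 ± 0.177 in raf-b2/3 control, and 2.33 ± 0.353 in WT mannitol and 0.0827 ± 0.0915 in WT control (SD, n = 3 each). GLUA1 averaged 1.51 ± 0.278 FPKM in raf-b2/3 mannitol and 0.737 ± 0.206 in raf-b2/3 control, and 1.16 ± 0.172 in WT mannitol and 0.556 ± 0.0711 in WT control (SD, n = 3 each). No marker of root or green shoot was at 0. The part of organ makeup in the receptor values was not tested, and in bulk RNA fewer cells of a kind and less RNA per cell cannot be told apart.

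The 7 receptor genes ranged in level from abundant transcripts to single fragments. LOC_Os02g15640 and LOC_Os10g42280 averaged 54.1 and 41.0 FPKM over the 12 libraries, above 91.2% and 87.8% of the tested loci. LOC_Os03g18600 averaged 22.4 FPKM and LOC_Os05g39580 2.17 FPKM. LOC_Os06g36670, LOC_Os02g13330 and LOC_Os01g61210 averaged 0.713, 0.359 and 0.0451 FPKM.

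**Figure D1:**
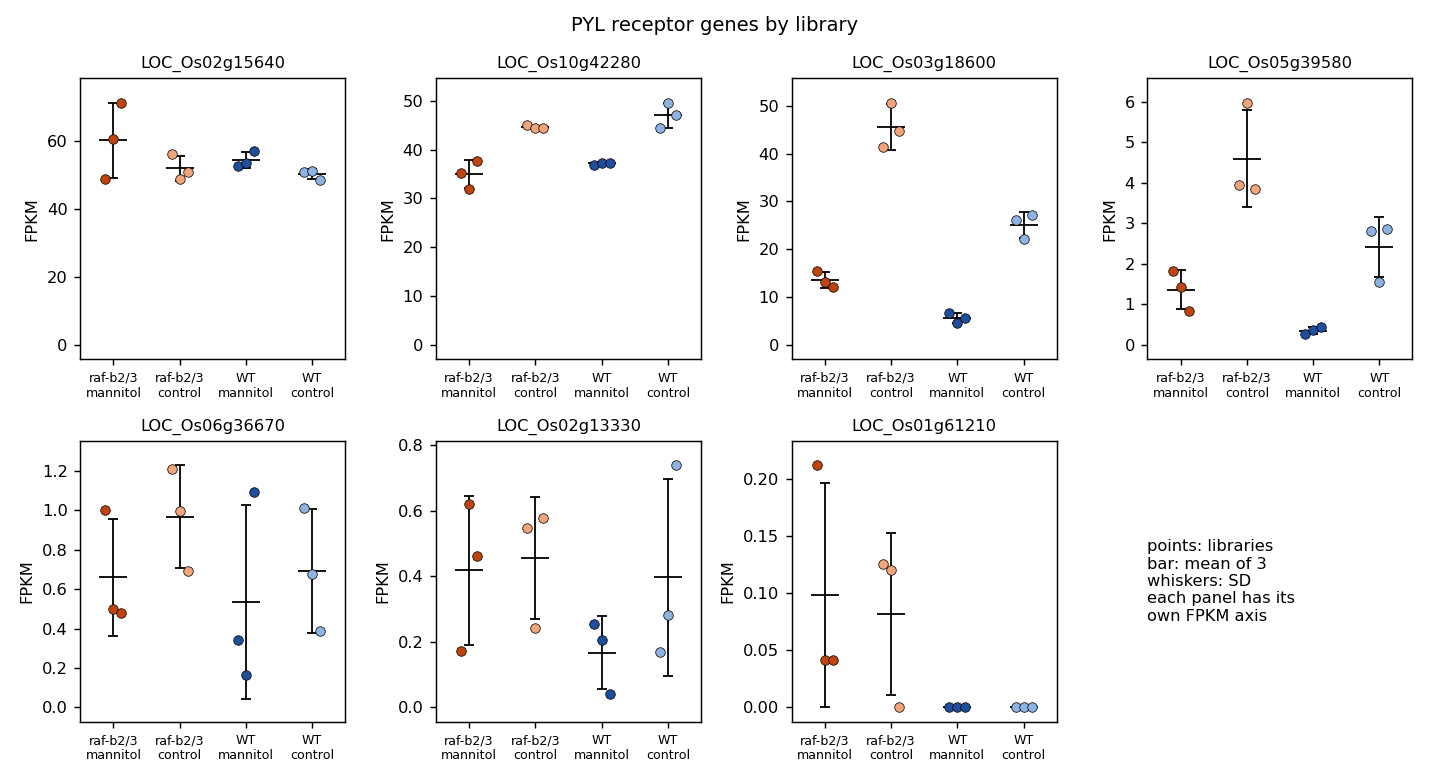
Level in FPKM of each of the 7 PYL genes in every library (points), with the mean and SD of the 3 libraries of a group (bars), each panel on its own axis. LOC_Os03g18600 and LOC_Os05g39580 lie lower under mannitol in both genotypes with no overlap, LOC_Os02g15640 overlaps between treatment and control in raf-b2/3, and LOC_Os01g61210 is at 0 in all 6 WT libraries.

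LOC_Os03g18600 fell under mannitol in both genotypes and was higher in raf-b2/3 than in WT in both treatments. It was at 15.4, 13.2 and 11.95 FPKM in raf-b2/3 mannitol, against 41.3, 50.7 and 44.8 FPKM in raf-b2/3 control. In WT it was at 6.61, 4.55 and 5.63 FPKM under mannitol, against 26.0, 22.0 and 27.1 FPKM in control. The treated libraries lay below the untreated ones of the same genotype without overlap, and within each treatment the raf-b2/3 libraries lay above the WT libraries without overlap. The 4 groups therefore stood in the order raf-b2/3 control, WT control, raf-b2/3 mannitol and WT mannitol, from high to low, and no neighbours in that order overlapped.

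The group means of LOC_Os03g18600 were 13.5 ± 1.76 FPKM in raf-b2/3 mannitol and 45.6 ± 4.74 in raf-b2/3 control (SD, n = 3 each). In WT they were 5.60 ± 1.03 FPKM under mannitol and 25.1 ± 2.69 in control (SD, n = 3 each). Under mannitol the mean fell by 70.4% in raf-b2/3 and fell by 77.7% in WT. On the log2(FPKM + 1) scale the change was -1.69 in raf-b2/3 (SE 0.13, limma adjusted p = 4.85e-07) and -1.99 in WT (SE 0.13, limma adjusted p = 8.92e-08). Only 1.03% of the tested loci had a lower log2 change in raf-b2/3, and 0.527% in WT. In the raf-b2/3 line the gene was higher than in WT by log2 1.14 under mannitol (limma adjusted p = 1.32e-04) and by log2 0.84 without it (limma adjusted p = 0.00552), which are ratios of means of 2.41 and 1.82. Without WT control 2, the library with low root markers, the difference between untreated genotypes was log2 0.75 (limma adjusted p = 0.022). The mannitol response of raf-b2/3 minus that of WT was 0.30 (95% interval -0.09 to 0.70, limma adjusted p = 0.445), so a difference in the size of the response was not detected, and the interval holds values up to 0.70.

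LOC_Os05g39580 moved in the same directions at a much lower level. It was at 1.80, 1.43 and 0.835 FPKM in raf-b2/3 mannitol, against 3.95, 5.98 and 3.84 FPKM in raf-b2/3 control. In WT it was at 0.252, 0.347 and 0.430 FPKM under mannitol, against 2.80, 1.55 and 2.86 FPKM in control. The treated and untreated libraries of a genotype did not overlap, and neither did the genotypes within a treatment, although the lowest raf-b2/3 mannitol library was closer to WT mannitol than to its own group's highest. These values rest on 14 to 351 fragments per library, the fewest in WT mannitol.

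The mean of LOC_Os05g39580 was 1.36 ± 0.489 FPKM in raf-b2/3 mannitol and 4.59 ± 1.20 in raf-b2/3 control (SD, n = 3 each), a mean that fell by 70.4%. It was 0.343 ± 0.0894 FPKM in WT mannitol and 2.41 ± 0.738 in WT control (SD, n = 3 each), a mean that fell by 85.7%. The fitted log2 changes were -1.25 in raf-b2/3 (SE 0.20, limma adjusted p = 1.86e-04) and -1.32 in WT (SE 0.20, limma adjusted p = 1.07e-04). The added 1 understates changes at this level: with 0.1 added in its place they were -1.72 in raf-b2/3 and -2.47 in WT. Under mannitol the gene was higher in raf-b2/3 than in WT by log2 0.79 (limma adjusted p = 0.0191, ratio of means 3.96). That call was lost when raf-b2/3 mannitol 1 or 2 or WT mannitol 1 or 2 was left out, with limma adjusted p = 0.0712, 0.0648, 0.0731 and 0.0579 in that order. Without mannitol the log2 difference of 0.72 did not pass (limma adjusted p = 0.109, ratio of means 1.91). With a library left out this difference ran from 0.52 to 0.82 and never passed. The lowest value came without WT control 2, the library with low root markers. The response of raf-b2/3 minus that of WT was 0.07 (95% interval -0.55 to 0.69, limma adjusted p = 0.936), and 0.75 (limma adjusted p = 0.453) with 0.1 added.

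**Figure D2:**
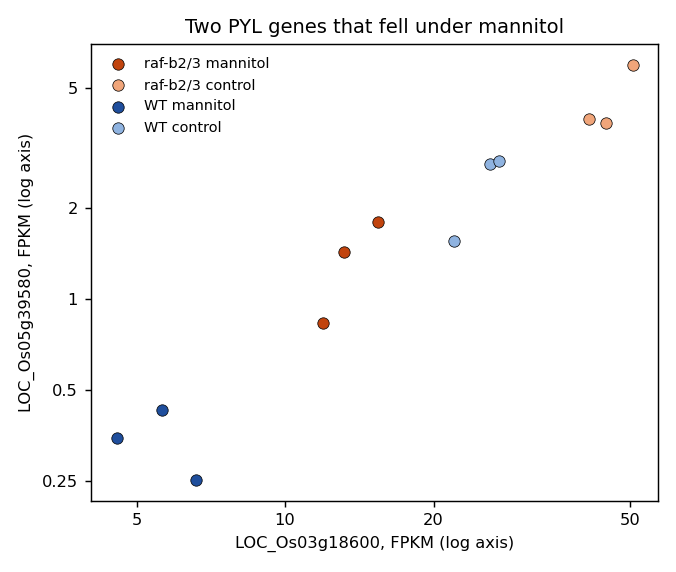
FPKM of LOC_Os05g39580 against LOC_Os03g18600 in the 12 libraries, on log axes, coloured by group. The 3 WT mannitol libraries lie lowest on both axes and the 3 raf-b2/3 control libraries highest, with raf-b2/3 mannitol below WT control on the LOC_Os03g18600 axis.

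Across the 12 libraries LOC_Os03g18600 and LOC_Os05g39580 were each the other's most similar receptor gene, with a Pearson r of 0.97 in log2(FPKM + 1). The treatment separates these points and they share library and depth, so the value is a description of group differences that run in parallel. Among the pathway genes described further on, the most similar to LOC_Os03g18600 was SAPK5 (r = 0.71) and the most opposite was the phosphatase gene PP2C08 (r = -0.97).

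LOC_Os10g42280, the receptor gene with the second highest level, fell modestly. It was at 35.3, 32.0 and 37.8 FPKM in raf-b2/3 mannitol, against 45.04, 44.5 and 44.4 FPKM in raf-b2/3 control. In WT it was at 36.9, 37.3 and 37.3 FPKM under mannitol, against 44.4, 49.7 and 47.1 FPKM in control. Every treated library lay below every untreated one, whichever the genotype, while raf-b2/3 and WT overlapped in each treatment.

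The log2 change of LOC_Os10g42280 was -0.35 in raf-b2/3 (SE 0.06, limma adjusted p = 5.68e-04) and -0.33 in WT (SE 0.06, limma adjusted p = 7.28e-04), means that fell by 21.6% and fell by 21.0%. The genotypes differed by log2 -0.09 under mannitol (95% interval -0.23 to 0.05) and by log2 -0.07 without it (95% interval -0.21 to 0.07), and neither passed the test (limma adjusted p = 0.411 and 0.648). Of the pathway genes, SAPK6 ran most opposite to it across the 12 libraries (r = -0.92).

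LOC_Os02g15640, the highest receptor gene, passed in no comparison. It was at 48.8, 60.4 and 71.0 FPKM in raf-b2/3 mannitol, against 56.0, 48.7 and 50.7 FPKM in raf-b2/3 control. In WT it was at 52.5, 53.5 and 56.8 FPKM under mannitol, against 50.9, 50.9 and 48.5 FPKM in control. The raf-b2/3 groups overlapped, with raf-b2/3 mannitol spread more widely than any other group, and the WT mannitol libraries were all slightly above the WT control libraries. The log2 change was 0.19 in raf-b2/3 (95% interval -0.04 to 0.43, limma adjusted p = 0.133) and 0.11 in WT (95% interval -0.12 to 0.35, limma adjusted p = 0.379). The WT change lay near the median of all tested loci, 0.09. Over all settings it ran from 0.0025 to 0.14 and passed in none. Without raf-b2/3 mannitol 1 the raf-b2/3 change was 0.33 and passed (limma adjusted p = 0.00443).

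**Figure D3:**
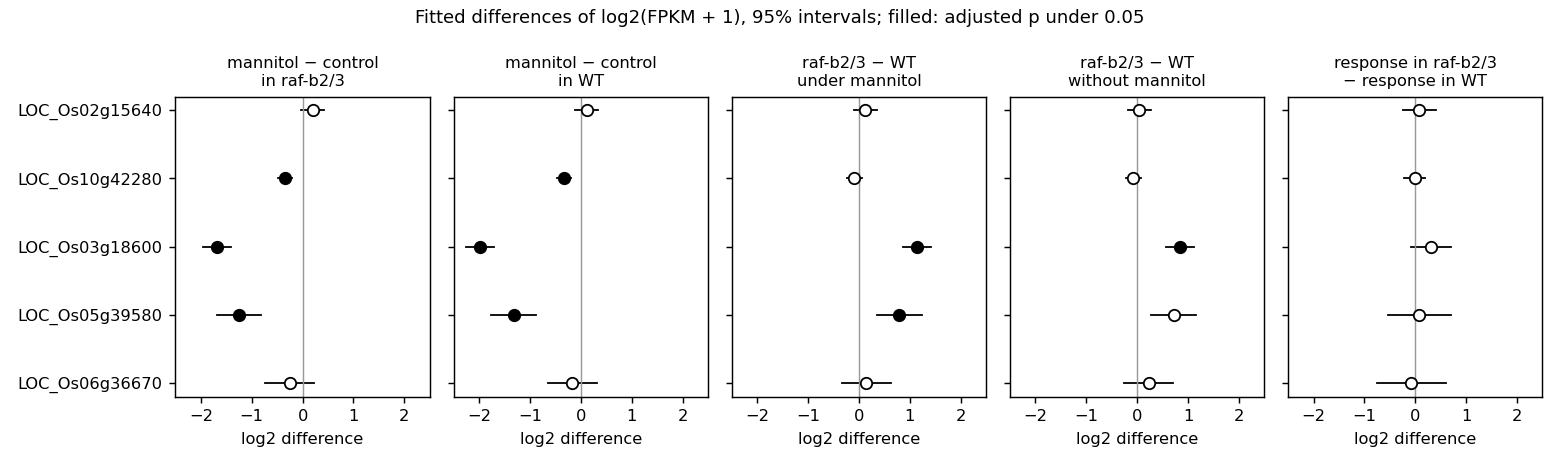
Fitted log2 differences (points) with 95% intervals for the 5 PYL genes that were tested, 1 panel for each comparison, filled where the limma adjusted p was under 0.05. LOC_Os03g18600 is filled in 4 panels, LOC_Os05g39580 in 3 and LOC_Os10g42280 in 2, and no gene is filled in the panel of response differences.

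The remaining 3 receptor genes were too low to carry a comparison. LOC_Os06g36670 was at 1.0014, 0.499 and 0.479 FPKM in raf-b2/3 mannitol, 1.21, 0.9986 and 0.693 in raf-b2/3 control, 0.342, 0.165 and 1.09 in WT mannitol and 1.01, 0.677 and 0.385 in WT control. The groups overlapped throughout, and the gene was tested but passed in no comparison. LOC_Os02g13330 ranged from 0.0407 to 0.739 FPKM, from 1 to 18 fragments per library, and was not tested. LOC_Os01g61210 had 5, 1 and 1 fragments in raf-b2/3 mannitol and 3, 3 and 0 in raf-b2/3 control, and none in any of the 6 WT libraries. A library with 0 fragments allows a level of up to 0.127 FPKM by counting error alone, and 1 raf-b2/3 library exceeded that, with 0.212 FPKM. For this locus the authors' deposited table lists a WT log2 change and p-value of 0, as it does for all 939 loci at 0 in every WT library, so those entries are not measurements.

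Counted together, 3 of the 5 tested receptor genes fell under mannitol in raf-b2/3, where 26.7% of all tested loci were called lower, and 3 of 5 fell in WT, where 25.5% were. The same 3 genes were called in both. Calls in either direction covered 62.2% of tested loci in raf-b2/3 and 63.3% in WT, so being called under mannitol does not by itself set a gene apart. The median log2 change of the 5 was -0.35 in raf-b2/3 and -0.33 in WT, beside 0.07 and 0.09 over all tested loci. Under mannitol 2 of 5 were higher in raf-b2/3 than in WT, beside 8.37% of tested loci called higher and 15.8% called in either direction. Without mannitol 1 of 5 was, beside 1.22% called higher and 1.81% in either direction. None of the 5 passed the test of the response difference by limma, where 2.98% of tested loci did, 1.96% with a lower value in raf-b2/3. None of them had an unadjusted p under 0.05 there, and limma-voom on recovered fragments called none. Under quantile normalization the median of all tested loci in the WT response moved to -0.01, against 0.09 without it, and 48.9% of WT calls were then higher, against 59.6%. LOC_Os10g42280, LOC_Os03g18600 and LOC_Os05g39580 then changed by log2 -0.39, -2.10 and -1.43 in WT.

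The makeup of the summed FPKM of the 7 genes, called the pool here, shifted with these changes. This pool leaves out family loci not analysed here and PYL11, a further locus described below. PYL11 averaged 22.8 FPKM in raf-b2/3 mannitol, 24.9 in raf-b2/3 control, 18.6 in WT mannitol and 24.1 in WT control. Shares of the whole family would therefore be lower than the shares given here. The 7 genes summed to 111 ± 10.3 FPKM in raf-b2/3 mannitol and 148 ± 3.11 in raf-b2/3 control (SD, n = 3 each). They summed to 98.1 ± 2.80 FPKM in WT mannitol and 126 ± 0.867 in WT control (SD, n = 3 each). LOC_Os03g18600 made up 12.3% ± 2.63 of the pool in raf-b2/3 mannitol and 30.7% ± 2.82 in raf-b2/3 control, and 5.71% ± 1.05 in WT mannitol and 19.9% ± 2.04 in WT control. LOC_Os02g15640 and LOC_Os10g42280 together made up 85.4% ± 3.44 in raf-b2/3 mannitol and 65.1% ± 3.30 in raf-b2/3 control, and 93.2% ± 1.15 in WT mannitol and 77.3% ± 2.70 in WT control. These shares do not depend on how libraries are scaled. In raf-b2/3 control LOC_Os03g18600, LOC_Os10g42280 and LOC_Os02g15640 averaged 45.6, 44.7 and 51.8 FPKM, and LOC_Os03g18600 overlapped with each of the others. In WT control LOC_Os03g18600 was below both of them in every library.

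**Figure D4:**
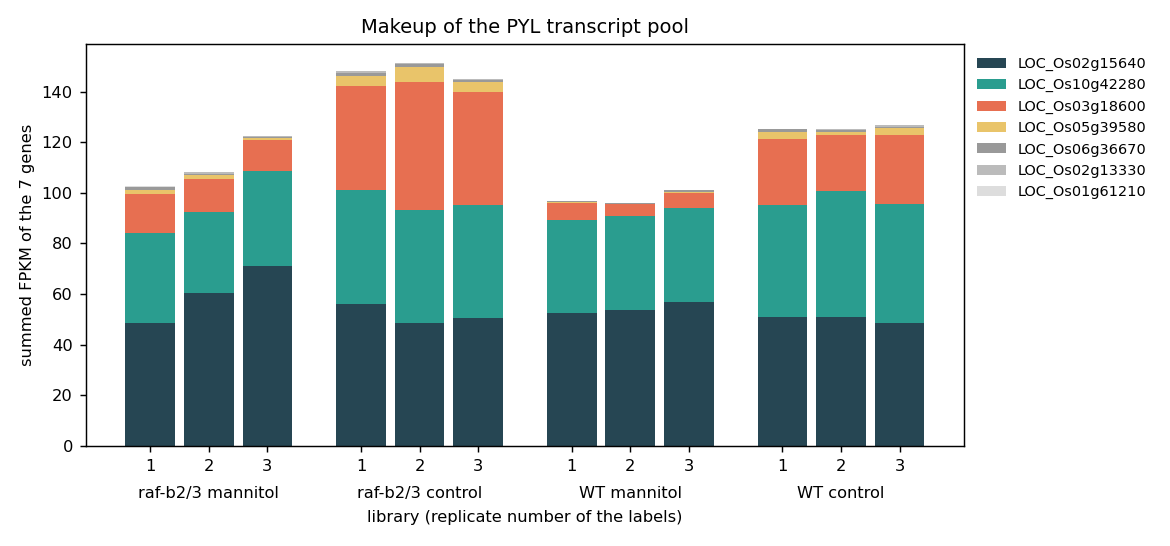
Summed FPKM of the 7 PYL genes in each of the 12 libraries, as stacked bars with 1 colour per gene, grouped by genotype and treatment. LOC_Os02g15640 and LOC_Os10g42280 fill most of every bar. The LOC_Os03g18600 segment, 12.3% and 5.71% of the sum of the 7 genes in raf-b2/3 and WT mannitol, is larger in the untreated libraries. PYL11 is left out.

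A further locus of the family outside the 7, LOC_Os05g12260, is named PYL11 in the reference. It averaged 22.8 ± 1.11 FPKM in raf-b2/3 mannitol and 24.9 ± 1.08 in raf-b2/3 control, and 18.6 ± 1.02 in WT mannitol and 24.1 ± 0.726 in WT control (SD, n = 3 each). It fell by 0.36 on the log2 scale in WT (limma adjusted p = 3.19e-04), and its change of -0.12 in raf-b2/3 did not pass (limma adjusted p = 0.115), though it passed with the other scalings tried and in the fit to recovered fragments. Its response difference of 0.24 did not pass (limma adjusted p = 0.197). Under mannitol it was higher in raf-b2/3 than in WT by log2 0.28 (limma adjusted p = 0.00958).

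Most genes of the receptors' co-receptors rose under mannitol. Of the 9 clade A PP2C genes, 8 rose in raf-b2/3 and 9 rose in WT, where 35.6% and 37.7% of all tested loci were called higher. Their median log2 change was 1.94 in raf-b2/3 and 2.77 in WT. PP2C53, called in WT alone, was near the threshold there (log2 0.18, limma adjusted p = 0.0457). Its change of 0.02 in raf-b2/3 did not pass (limma adjusted p = 0.803). PP2C09 averaged 65.0 ± 13.9 FPKM in raf-b2/3 mannitol and 5.48 ± 0.645 in raf-b2/3 control, and 97.2 ± 2.45 in WT mannitol and 8.81 ± 0.420 in WT control (SD, n = 3 each), log2 changes of 3.33 and 3.32. PP2C68 averaged 21.9 ± 3.82 FPKM in raf-b2/3 mannitol and 2.17 ± 1.82 in raf-b2/3 control, and 33.7 ± 1.72 in WT mannitol and 1.82 ± 1.13 in WT control (SD, n = 3 each), log2 changes of 2.99 and 3.71. These 4 changes passed, with limma adjusted p of 1.57e-05 or less.

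Under mannitol 6 of the 9 PP2C genes were lower in raf-b2/3 than in WT, beside 7.47% of tested loci called lower, and the median log2 difference was -0.62. Without mannitol 2 were called lower, PP2C08 and PP2C09, beside 0.59%, and both calls were near the threshold. That of PP2C08 (limma adjusted p = 0.0486) was lost with no filter on low values (0.0693), with the replicate block (0.0803), by limma-voom (0.0922) and without any one library other than raf-b2/3 mannitol 1 or 3 or WT control 2 (0.0619 to 0.154). That of PP2C09 (limma adjusted p = 0.0265) was lost by limma-voom (0.0719) and without raf-b2/3 control 2 or 3 or any of the 3 WT control libraries (0.0546 to 0.115). PP2C51 was at 1.64, 1.89 and 2.51 FPKM in raf-b2/3 mannitol, against 8.22 to 9.53 FPKM in WT mannitol, a log2 difference of -1.73 (limma adjusted p = 4.85e-06). PP2C08 was at 2.98, 4.39 and 4.75 FPKM in raf-b2/3 mannitol, against 11.7 to 13.8 FPKM in WT mannitol, a log2 difference of -1.47 (limma adjusted p = 3.57e-05). Receptor genes LOC_Os03g18600 and LOC_Os05g39580 and these phosphatase genes thus differed between the genotypes in opposite directions under mannitol.

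Summed over the family, PP2C transcripts reached 213 ± 31.5 FPKM in raf-b2/3 mannitol and 46.5 ± 4.63 in raf-b2/3 control. They reached 339 ± 2.66 FPKM in WT mannitol and 53.6 ± 5.97 in WT control (SD, n = 3 each). For each FPKM of the 7 receptor genes there were 1.92 ± 0.104 FPKM of PP2C genes in raf-b2/3 mannitol and 0.314 ± 0.0261 in raf-b2/3 control, and 3.45 ± 0.0909 in WT mannitol and 0.427 ± 0.0499 in WT control (SD, n = 3 each). No 2 groups overlapped in this ratio, which is independent of library scaling and leaves out PYL11 and family loci not analysed here.

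**Figure D5:**
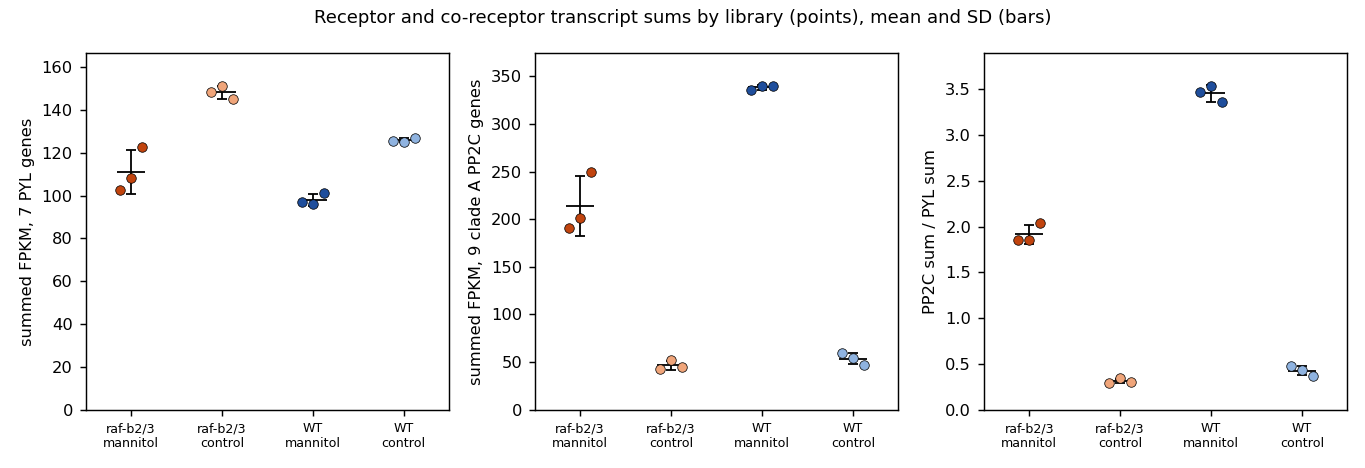
Summed FPKM of the 7 PYL genes (left), of the 9 clade A PP2C genes (middle) and the ratio of PP2C to PYL sums (right) per library (points), with mean and SD (bars) for each group. The ratio averages 1.92 in raf-b2/3 mannitol and 3.45 in WT mannitol, and is at most 0.472 in the 6 untreated libraries.

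All 10 SnRK2 genes were counted, and which of them act under the receptors was not tested. Of the 10, 6 rose under mannitol in each genotype and none fell. Of all tested loci, 35.6% were called higher in raf-b2/3 and 37.7% in WT. SAPK1, SAPK3, SAPK4 and SAPK6 were called in both genotypes, SAPK8 and SAPK10 in WT alone, and SAPK2 and SAPK7 in raf-b2/3 alone. SAPK5 and SAPK9 were called in neither. The response differences of SAPK2, SAPK7, SAPK8 and SAPK10 did not pass. SAPK6 averaged 32.5 ± 2.24 FPKM in raf-b2/3 mannitol and 9.13 ± 0.684 in raf-b2/3 control, and 35.7 ± 1.57 in WT mannitol and 9.10 ± 1.12 in WT control (SD, n = 3 each), log2 changes of 1.73 and 1.87. SAPK1 rose by log2 0.76 in raf-b2/3 and 1.44 in WT. All 4 changes passed, with limma adjusted p of 1.07e-05 or less. Under mannitol 3 of the 10 were lower and 1 was higher in raf-b2/3 than in WT, beside 7.47% and 8.37% of tested loci. SAPK1, among those lower (limma adjusted p = 0.0127), did not pass without raf-b2/3 mannitol 2 (limma adjusted p = 0.0564).

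Of 6 ABF/AREB type bZIP genes, 5 rose in raf-b2/3 and 6 in WT, beside 35.6% and 37.7% of tested loci. Under mannitol all 6 were lower in raf-b2/3 than in WT, beside 7.47%. LOC_Os06g10880 averaged 22.4 ± 1.82 FPKM in raf-b2/3 mannitol and 8.41 ± 0.378 in raf-b2/3 control, and 41.5 ± 1.90 in WT mannitol and 9.20 ± 0.521 in WT control (SD, n = 3 each), log2 changes of 1.31 and 2.06. BZIP23 rose by log2 1.35 in raf-b2/3 and 1.88 in WT. All 4 changes passed, with limma adjusted p of 9.06e-07 or less.

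Of 7 genes of ABA synthesis and breakdown, 4 rose in raf-b2/3 and 5 in WT, beside 35.6% and 37.7% of tested loci. In raf-b2/3, 3 were lower than in WT under mannitol, beside 7.47%. They were the breakdown genes ABA8OX2 and ABA8OX3, and LOC_Os07g05940, listed as a synthesis gene. NCED3, which encodes a cleavage enzyme of ABA synthesis, averaged 2.95 ± 0.660 FPKM in raf-b2/3 mannitol and 0.185 ± 0.130 in raf-b2/3 control, and 3.18 ± 0.220 in WT mannitol and 0.630 ± 0.454 in WT control (SD, n = 3 each), log2 changes of 1.73 and 1.40. ABA8OX2, which encodes an ABA 8'-hydroxylase that breaks the hormone down, rose by log2 0.97 in raf-b2/3 and 1.95 in WT. All 4 changes passed, with limma adjusted p of 5.34e-05 or less.

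The authors' deposited table classed LOC_Os03g18600 and LOC_Os05g39580 as lowered by mannitol in WT alone. Its log2 fold changes for LOC_Os03g18600 were -1.83 in raf-b2/3 and -2.27 in WT. For LOC_Os05g39580 the authors' deposited table gave -1.83 in raf-b2/3 and -2.92 in WT, with p-values of 1.24e-10 and 3.69e-15. All 757 loci that the authors' deposited table classes as lowered in raf-b2/3 had a log2 of -2.00 or less there, so both receptor genes lay on the other side of that value in raf-b2/3 by a small margin. Of the 386 loci in the class lowered in WT alone, 277 had a raf-b2/3 log2 under -1 in the authors' deposited table.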

How the data were processed

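Total RNA of whole seedlings was sequenced as paired reads of 150 bases with a directional kit, per the labels' protocols. Per the file headers, the authors deposited FPKM per locus, and log2 changes with p-values of their mannitol comparisons, which may be raw or adjusted. Trimmomatic, DESeq2, edgeR and the build IRGSP-1.0 appear, without order, in the submitters' processing notes. The sources used here give no aligner, annotation or strand setting, so reads of overlapping or similar family members may not have been told apart.

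Whole fragments were recovered for all 29358 loci from the steps of low FPKM values, within 0.01 of a fragment. The gene length implied by these counts came within 0.02 of a whole base for 86.0% of loci, and other loci lack that check. The limma (3.58.1, R 4.3.3) trend fit on log2(FPKM + 1) used 1 mean per group over 12 libraries and was tested on simulated data. The simulation changed far fewer loci than were called under mannitol here, so it does not cover that setting. A floor is 3 fragments and, like intervals on fragments, covers counting error only. Group means carry the SD of 3 libraries.

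Members and lists were chosen with earlier results of these data known. Named were all 7 members, and of each pathway list the 2 largest rises and 2 largest falls in WT among called genes and any gene called in the interaction. Gene names were kept where chromosome and order matched the reference gene table (assembly ASM3414082v1), for 36 of 46 entries; other loci are called by number. Sequences and coordinates were not used here. Alternatives were pseudocount 0.1, no filter, median-of-ratios scaling, quantile normalization, a replicate block, limma-voom on recovered fragments and leaving libraries out.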

Additional observations from a re-analysis of the deposited data

Results flagged for a closer look

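The mannitol response differed between the genotypes for 3 of 9 PP2C genes, 2 of 10 SnRK2 genes, 1 of 6 bZIP genes and 1 of 7 genes of ABA synthesis and breakdown, beside 2.98% of all tested loci, by limma at an adjusted p under 0.05. Each rose less in raf-b2/3 than in WT. Whether these lists differ from the receptor genes, of which 0 of 5 passed, was not tested. The response in raf-b2/3 minus that in WT was log2 -1.42 for PP2C51, -0.87 for PP2C08 and -0.45 for PP2C06, the phosphatase genes. It was -0.67 for SAPK1 and -0.83 for SAPK3, kinase genes, -0.75 for the bZIP gene LOC_Os06g10880 and -0.98 for ABA8OX2. The calls of SAPK1 and LOC_Os06g10880 stood in 19 of 19 alternatives. The call ended in 16 of 19 alternatives for PP2C06, 13 for PP2C08, 7 for SAPK3, 3 for ABA8OX2 and 2 for PP2C51. For PP2C51 the value was -1.04 with 0.1 added and -0.59 by limma-voom on recovered fragments, and neither passed.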

How the results depend on the processing

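The calls of LOC_Os03g18600 and LOC_Os10g42280 and the falls of LOC_Os05g39580 stood under every alternative run. The number of receptor genes higher in raf-b2/3 under mannitol was 1 to 2 with a library left out, and that of the genes that fell in raf-b2/3 kept to 3. The replicate block left the receptor counts at 3 in the raf-b2/3 response, 3 in the WT response, 2 under mannitol, 1 without mannitol and 0 in the response difference. Replicate numbers did not pair the libraries: 4 of 18 same-numbered pairs had a correlation of deviations over 0.1, with a range of -0.31 to 0.26. Changes of sign concerned values that passed in no setting, and the cause was not tested. Not all of these values stayed near 0: over all settings the response difference of LOC_Os05g39580 ran from -0.063 to 0.99. Between untreated genotypes SAPK6 became -0.021 under median-of-ratios scaling, -0.033 under quantile normalization, -0.016 by limma-voom and -0.023 without WT control 2 and raf-b2/3 mannitol 3, and SAPK3 became -0.081 without those libraries. The response difference of LOC_Os10g42280 became 0.017 under median-of-ratios scaling, 0.00431 under quantile normalization and 0.021 by limma-voom. That of LOC_Os06g36670 became 0.00097 with 0.1 added and 0.11 by limma-voom. Without those 2 libraries that of LOC_Os02g15640 became -0.056 and that of PP2C09 -0.12. With a library left out, the WT response of LOC_Os06g36670 ran from -0.42 to 0.0033. The difference between untreated genotypes ran from -0.011 to 0.088 for LOC_Os02g15640, -0.32 to 0.41 for PP2C68, -0.051 to 0.096 for SAPK6, -0.081 to 0.24 for SAPK3 and -0.14 to 0.021 for BZIP23. That under mannitol ran from -0.028 to 0.39 for LOC_Os06g36670 and -0.22 to 0.020 for NCED3. The response difference ran from -0.070 to 0.047 for LOC_Os10g42280, -0.26 to 0.17 for LOC_Os06g36670, -0.045 to 0.22 for LOC_Os02g15640, -0.063 to 0.27 for LOC_Os05g39580 and -0.15 to 0.13 for PP2C09. Depth limits LOC_Os06g36670, LOC_Os02g13330 and LOC_Os01g61210, with at most 43 fragments in a library.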
